A study of Mus musculus with 6 samples.

Results

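Toll-like receptors are membrane proteins with which macrophages, dendritic cells and B cells recognise microbial molecules, and 10 transcripts of this family, listed by gene symbol with earlier results of these data known, were followed in mouse spleen. Surface receptors were represented by Tlr1, Tlr2, Tlr4, Tlr6 and the receptor-like Cd180, and endosomal receptors by Tlr3, Tlr7, Tlr8, Tlr9 and Tlr13. Each of the 10 had exactly 1 probe set annotated to its symbol alone, among 22180 genes measured. The study compared 3 spleens of mice overexpressing AIMP2-DX2, a shortened splice form of the tRNA synthetase scaffold AIMP2, with 3 spleens of control littermates, each on 1 Affymetrix array. The overexpressing mice (DX2) had the genotype CAG-rtTA; TRE DX2/+, in which the doxycycline-dependent activator rtTA under the broadly active CAG promoter drives a responsive DX2 transgene. Control mice, of genotype 0; TRE DX2/+, had the same transgene but no rtTA. All 6 animals received doxycycline (6.25 mg per kg) in food pellets from the age of 8 weeks and were 1 year old. Effects of DX2 and of rtTA cannot be told apart, since only DX2 mice carried the activator.

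Surface receptors bind lipids and lipoproteins of microbial walls at the cell membrane, while endosomal receptors bind nucleic acids inside the cell. Most of them signal through the adaptor MyD88, which recruits IRAK kinases and TRAF6 and leads to NF-kB, and endosomal receptors also lead to interferon regulatory factors. In spleen, B cells of the follicles and marginal zone, red pulp macrophages, monocytes and dendritic cells carry different sets of these receptors. A transcript measured in whole spleen is a sum over all of them, so fewer cells of a type and less RNA per cell cannot be told apart.

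The arrays were comparable in level over the named genes, but some features of them touch the results. The median log2 value over all genes lay between 5.42 and 5.46 on every array. Over all probe sets, unnamed ones included, the median was 5.20, 5.17 and 5.16 in control and 5.12, 5.07 and 5.06 in DX2 spleens. Every DX2 array thus lay below every control on that measure. By Xist and the Y-linked Eif2s3y, 2 control spleens (controls 1 and 2) were female and the other 4 spleens male, which the labels do not mention. Xist read 10.89 and 10.54 in these controls and 3.89 to 4.29 elsewhere, and Tlr7, Tlr8 and Tlr13 lie on the X chromosome. The spleen DX2 1 stood apart in its cell markers, with a mean over 6 T cell markers of 6.58 against 7.78 to 8.29 on the other arrays and a mean over 9 neutrophil markers of 9.16 against 6.89 to 8.10. The B cell marker Cd79a and the red pulp macrophage factor Spic were well represented on every array (at least 9.45 and 8.76). The only probe set that covers Aimp2 carries several symbols, so the group labels could not be checked against the induced gene. The titles call the 3 samples of a group biological replicates, and p-values measure the spread between these spleens.

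None of the 10 receptors passed the test over all genes. Tlr1 and Cd180 were lower in DX2 spleens by 0.72 and 0.90 on the log2 scale, and Tlr8 and Tlr13 were higher by 1.32 and 0.75. By limma with Benjamini-Hochberg adjustment, 0 of 10 receptors reached an adjusted p of 0.05, against 0.316% of all genes (70 of 22180), and 5 of 10 had an unadjusted p under 0.05, against 16.0% of all genes. Of these 5, 3 were higher in DX2 (8.13% of all genes) and 2 lower (7.82%). At an adjusted p of 0.1, 1 receptor, Tlr13, was called, against 1.78% of all genes. The groups did not overlap for 4 of 10 receptors (Tlr1, Tlr4, Tlr8 and Tlr13), against 22.0% of all genes, and 3 of them lay higher in DX2 (10.7% of all genes) and 1 lower (11.2%). Without DX2 1 that number was 5, against 33.9% of all genes, and in the male spleens alone, 1 control against 3 DX2, it was also 5, against 54.5%. Of the 5 surface receptors 2 were higher and 3 lower in DX2 (median difference -0.04), and of the 5 endosomal receptors 4 were higher and 1 lower (median difference 0.45). The surface median was 0.073 without DX2 1, and the endosomal median 0.020 without DX2 2. Over all 10, 6 were higher and 4 lower (median 0.11), while of all genes 51.6% were higher and 48.4% lower, and the median difference was 0.01.

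**Figure D1:**
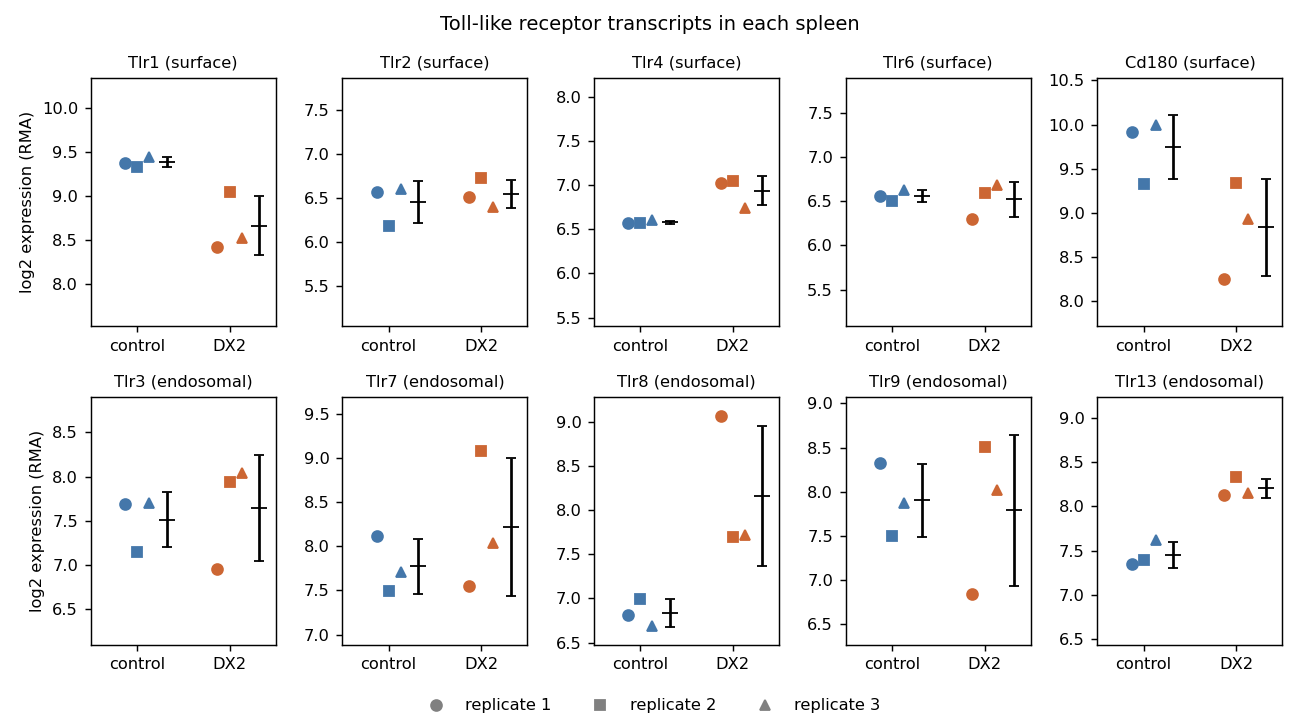
Deposited log2 expression of each of the 10 receptors (vertical axes, each spanning the same number of log2 units) in the 3 control and 3 DX2 spleens, with the group mean and SD as a black bar. The groups do not overlap for Tlr1, Tlr4, Tlr8 and Tlr13, and the DX2 spleens are more widely spread for 8 of the 10 receptors.

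Tlr1, which pairs with Tlr2 to bind triacylated lipopeptides, was lower in all DX2 spleens. It read 9.37, 9.33 and 9.44 in controls 1 to 3 and 8.42, 9.04 and 8.53 in DX2 1 to 3. The control values lay close together and every DX2 value lay below them, DX2 2 being the nearest. The difference of -0.72 (SE 0.17, 95% interval -1.12 to -0.32), 1.64-fold lower, missed the threshold (limma, adjusted p = 0.118). Leaving out DX2 1 gave -0.59, and the male spleens alone gave -0.78. Without DX2 2 it was -0.91 and passed (adjusted p = 0.0359), and with array weights it was -0.80 and passed (adjusted p = 0.0379).

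Cd180, a Toll-like receptor relative without the intracellular signalling domain that modulates responses of B cells to lipopolysaccharide, was lower on average with overlapping groups. It read 9.92, 9.32 and 9.99 in control and 8.25, 9.34 and 8.93 in DX2 spleens. DX2 2 lay level with control 2, the lowest control, and DX2 1 lay lowest of all. The difference of -0.90 (SE 0.29, 95% interval -1.59 to -0.22), 1.87-fold lower, had an adjusted p = 0.205 (limma). The value was -0.61 with DX2 1 left out and -1.15 among male spleens.

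B cell markers were lower in DX2 spleens, as these receptors were on average. All 7 measured markers were lower in DX2 (median -1.18), without overlap between the groups. Of all genes, 11.2% lay lower in DX2 without overlap. Past the threshold was 1 of the 7, against 0.316% of all genes. It was the B cell receptor chain Cd79b, lower by 1.14 (SE 0.16, adjusted p = 0.0456, limma). The mean over the 7 was 10.19 to 10.52 in control and 8.60 to 9.58 in DX2 spleens. It was lowest in DX2 1, where Tlr1 and Cd180 were lowest as well. DX2 2 lay slightly below DX2 3 in this mean (9.49 against 9.58). For Tlr1 (9.04 against 8.53) and Cd180 (9.34 against 8.93) DX2 2 lay above DX2 3. None of these markers was near the low end of the table, the lowest value being 6.40 for Pax5 in DX2 1. The part of the B cell markers in the lower Tlr1 and Cd180 was not tested.

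The bases upstream of both genes are shown because these 2 receptors had the largest differences toward lower values. The windows hold 250 bases before a RefSeq transcript start in the mouse build GRCm38.p6, written 5′ to 3′ on the gene's strand, at chr5:64933559-64933808 (minus strand) for Tlr1 and chr13:102693297-102693546 (plus strand) for Cd180, with 1 of 2 listed starts shown for each. Capitals mark matches to any of 4 motifs searched on both strands, namely the ETS core AGGAAG, which the myeloid and B cell factor PU.1 can bind, the octamer ATGCAAAT of OCT factors, the interferon response core of 2 GAAA repeats 2 bases apart, and the ETS-IRF composite of GGAA and GAAA 2 bases apart.
Tlr1: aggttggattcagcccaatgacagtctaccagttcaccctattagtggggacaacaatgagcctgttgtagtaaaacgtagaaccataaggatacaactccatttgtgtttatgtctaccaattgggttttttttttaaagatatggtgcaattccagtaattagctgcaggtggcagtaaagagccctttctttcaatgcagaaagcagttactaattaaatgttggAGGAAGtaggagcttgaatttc
Cd180: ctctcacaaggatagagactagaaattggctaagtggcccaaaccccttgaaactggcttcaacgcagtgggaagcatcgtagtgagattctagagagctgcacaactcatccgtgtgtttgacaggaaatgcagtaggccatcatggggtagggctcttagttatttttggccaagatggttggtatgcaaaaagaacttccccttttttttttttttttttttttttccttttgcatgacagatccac
The Tlr1 window held the ETS core 22 bases before the start, while its other window and both Cd180 windows held none of the 4 motifs. Windows were matched for 8 of the 10 receptors, in 11 windows, of which 5 held the ETS core, against 29.5% of all 32851 windows. The octamer stood in 1 of the 11, upstream of Tlr9 (1.6% of all windows), and the interferon response core in 1, upstream of Tlr6 (2.98%), in 2 matches that overlap each other. The composite was in 0 of the 11 (2.3% of all windows). A match is a description of letters and not evidence of binding.

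Tlr4, the lipopolysaccharide receptor, was slightly higher in DX2. It read 6.57, 6.57 and 6.60 in control and 7.03, 7.04 and 6.74 in DX2 spleens. Every DX2 value lay above the closely spaced controls, DX2 3 by the least. The difference of 0.36 (SE 0.12, 95% interval 0.08 to 0.63) did not pass (adjusted p = 0.210, limma), with 0.31 when DX2 1 was left out and 0.34 among male spleens.

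Tlr2 and Tlr6 showed no difference beyond their spread. Tlr2, the shared partner of Tlr1 and Tlr6, read 6.57, 6.18 and 6.61 in control and 6.51, 6.72 and 6.40 in DX2 spleens, with a difference of 0.09 (95% interval -0.27 to 0.45, adjusted p = 0.822, limma). Tlr6, which pairs with Tlr2 to bind diacylated lipopeptides, read 6.55, 6.50 and 6.63 in control and 6.29, 6.59 and 6.68 in DX2 spleens, with a difference of -0.04 (95% interval -0.34 to 0.26, adjusted p = 0.917, limma). For both the groups overlapped, and the intervals leave room for differences up to the sizes given. The sign for Tlr6 turned with arrays centred on their median (0.052), with a second quantile normalization (0.0074), with array weights (0.024) and without DX2 1 (0.073). That for Tlr2 turned among male spleens (-0.063) and without control 2 (-0.044).

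Tlr1 and Tlr6 are neighbouring genes on chromosome 5 with no protein-coding gene starting between them, and they are close relatives whose probe sets may share sequence. The difference Tlr1 minus Tlr6 on each array was 2.82, 2.83 and 2.81 in control and 2.12, 2.46 and 1.85 in DX2 spleens. It was nearly constant among controls and smaller in every DX2 spleen, by 0.68 on average. As Tlr6 hardly differed, this value largely repeats the lower Tlr1 and is no separate support for it. The exact two-sided permutation test gave p = 0.10, the smallest that 3 against 3 samples allow (0.15 after Benjamini-Hochberg adjustment over 3 such pairs, which were chosen after the values were seen).

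**Figure D2:**
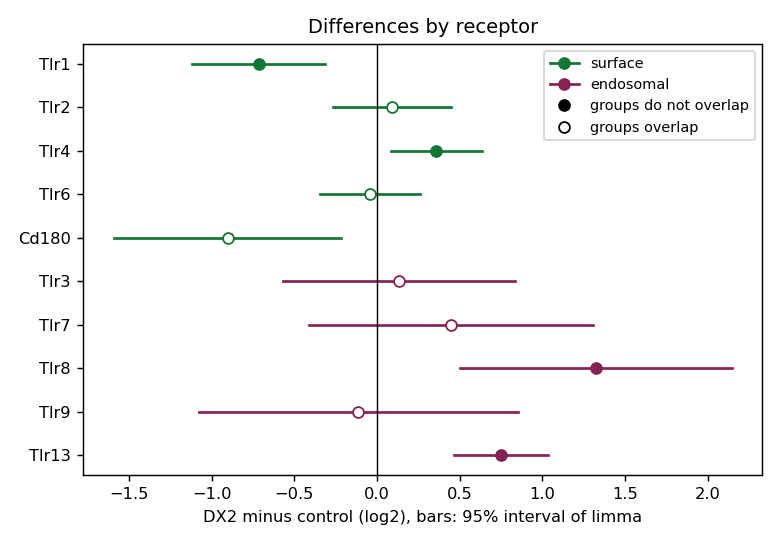
DX2 minus control for each receptor on the log2 scale (horizontal axis), with the 95% interval from limma. Filled points mark the 4 receptors whose groups do not overlap, of which Tlr1 lies below 0 and Tlr4, Tlr8 and Tlr13 lie above it.

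Tlr8, an X-linked endosomal receptor for products of RNA breakdown, had the largest difference of the 10. It read 6.82, 7.00 and 6.69 in control and 9.07, 7.69 and 7.72 in DX2 spleens. All DX2 values lay above the controls, and DX2 1 lay far above DX2 2 and DX2 3, which were level with each other. The difference of 1.32 (SE 0.35, 95% interval 0.50 to 2.14), 2.50-fold higher, did not pass (adjusted p = 0.142, limma). It was 0.87 without DX2 1 (adjusted p = 0.0740) and 1.47 in the male spleens alone (adjusted p = 0.700).

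Tlr13, an X-linked endosomal receptor for bacterial ribosomal RNA that mice have and humans lack, had the smallest p of the 10. It read 7.34, 7.39 and 7.62 in control and 8.13, 8.33 and 8.15 in DX2 spleens. All 3 DX2 values lay above the controls, with as little spread as among them. The difference of 0.75 (SE 0.12, 95% interval 0.47 to 1.04), 1.68-fold higher, had an adjusted p = 0.0638 (limma). Leaving out DX2 1 gave 0.79, and the male spleens alone gave 0.58. The call at 0.05 was made with the 40% dimmest genes left out (adjusted p = 0.0470) and with array weights (0.71, adjusted p = 0.0340), and the sex term gave an adjusted p = 0.452.

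Most markers of monocytes and macrophages were higher in DX2 spleens. Of 9 neutrophil markers 8 were higher (median 0.65), with overlapping groups and the highest mean in DX2 1. Of 8 monocyte markers 7 were higher in DX2 (median 0.51), none past the threshold. The groups did not overlap for 4 of the 8, all higher in DX2 (10.7% of all genes). Ccr2 was lower (-0.14), and Ly6c1 hardly differed (0.01). The mean over the list was 7.30 to 7.40 in control and 7.70 to 8.25 in DX2 spleens, highest in DX2 1. The Fc receptor Fcgr4 read 7.50, 8.58 and 6.79 in control and 11.00, 9.30 and 8.96 in DX2 spleens, highest in DX2 1 as Tlr8 was, with a difference of 2.13 (SE 0.61, adjusted p = 0.158, limma). The receptor Csf1r (0.49, SE 0.13) and Treml4 (0.60, SE 0.16) had adjusted p of 0.149 and 0.151. Of 10 red pulp macrophage markers 8 were higher (median 0.48), with list means of 8.63 to 8.83 in control and 9.23 to 9.42 in DX2 spleens, and Cd5l, a protein secreted by macrophages, rose by 1.35 (SE 0.18, adjusted p = 0.0422, limma). The defining markers Spic (0.46) and Vcam1 (0.49) did not overlap between the groups, while Hmox1 (-0.03) and Slc40a1 (-0.33) did. The part of these cell types in the higher Tlr4, Tlr8 and Tlr13 was not tested.

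The upstream bases of Tlr8 and Tlr13 are shown as those of the 2 receptors with the largest differences toward higher values. They come from the same RefSeq table and build, 250 bases before the start, at chrX:167264330-167264579 (minus strand) for Tlr8 and chrX:106143025-106143274 (plus strand) for Tlr13, and capitals mark matches to the 4 motifs named above.
Tlr8: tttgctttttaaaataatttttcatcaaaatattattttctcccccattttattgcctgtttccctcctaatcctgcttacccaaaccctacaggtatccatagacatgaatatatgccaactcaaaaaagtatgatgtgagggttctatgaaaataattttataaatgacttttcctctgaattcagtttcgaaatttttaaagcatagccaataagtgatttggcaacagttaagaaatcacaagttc
Tlr13: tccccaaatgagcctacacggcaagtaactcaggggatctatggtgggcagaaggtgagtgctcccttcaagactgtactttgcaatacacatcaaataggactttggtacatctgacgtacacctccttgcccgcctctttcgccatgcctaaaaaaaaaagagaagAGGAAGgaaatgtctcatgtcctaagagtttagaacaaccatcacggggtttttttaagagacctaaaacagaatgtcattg
The Tlr13 window held the ETS core 82 bases before the start, and the Tlr8 window held none of the 4 motifs.

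**Figure D3:**
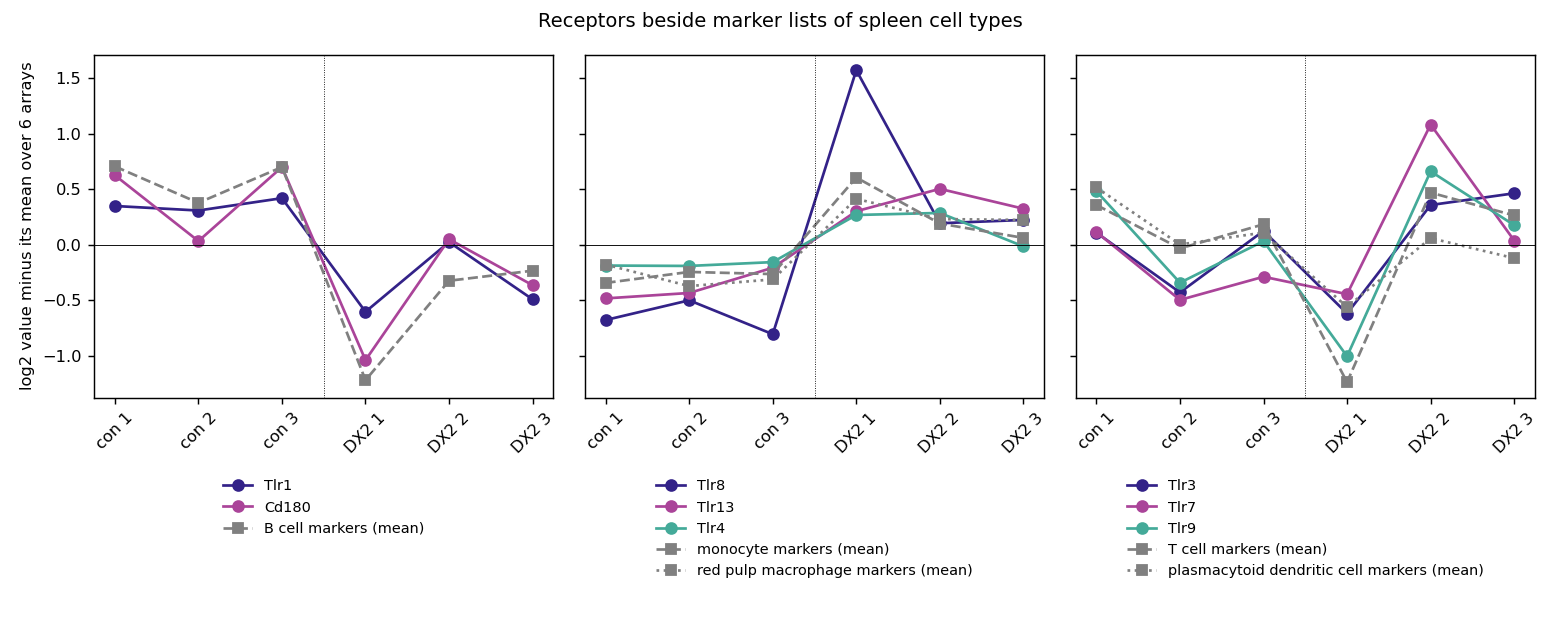
Log2 values of receptors and mean log2 values of marker lists on each array, each minus its own mean over the 6 arrays (vertical axis), with con for control and lines that only join points of one gene or list. Tlr1 and Cd180 are lowest in DX2 1, where the B cell marker mean is lowest, Tlr8 is highest in DX2 1, where the monocyte marker mean is highest, and Tlr3 and Tlr9 are lowest in DX2 1, where the T cell marker mean is lowest.

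The other endosomal receptors varied more within the DX2 group than between the groups. Tlr7, an X-linked receptor for single-stranded RNA, read 8.11, 7.50 and 7.71 in control and 7.55, 9.08 and 8.03 in DX2 spleens. DX2 2 lay highest, and DX2 1 lay among the controls. The difference of 0.45 (SE 0.37, 95% interval -0.41 to 1.31) had an adjusted p = 0.608 (limma), and it was 0.78 without DX2 1 and 0.02 without DX2 2.

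Tlr9, the receptor for unmethylated CpG DNA, read 8.33, 7.50 and 7.88 in control and 6.84, 8.51 and 8.02 in DX2 spleens. DX2 1 lay below every other array and DX2 2 above every other. The difference of -0.11 (SE 0.41, 95% interval -1.08 to 0.85) had an adjusted p = 0.927 (limma), and its sign turned without DX2 1 (0.36) and without control 1 (0.10).

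Tlr3, which binds RNA duplexes and signals through the adaptor TRIF, read 7.69, 7.15 and 7.70 in control and 6.96, 7.94 and 8.04 in DX2 spleens. DX2 2 and DX2 3 lay above all controls and DX2 1 below them. The difference of 0.13 (SE 0.30, 95% interval -0.57 to 0.83) had an adjusted p = 0.873 (limma). It was 0.48 without DX2 1, where its groups did not overlap, and -0.057 among male spleens.

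DX2 1 held the lowest value of the DX2 group for 7 of the 10 receptors, against 38.6% of all genes, with Tlr8 the 1 receptor for which it was highest. The spread was larger among DX2 than among control spleens for 8 of the 10, against 58.6% of all genes. The mean over 6 T cell markers, all of them lower in DX2 on average (median -0.35), was also lowest in DX2 1. It was 6.58 there, 8.29 and 8.08 in DX2 2 and DX2 3, and 7.78 to 8.17 in control spleens. The groups overlapped for every T cell marker. The mean over 6 plasmacytoid dendritic cell markers, 5 of them lower (median -0.38), was lowest in DX2 1 as well. The mean over plasmacytoid markers was 6.29 to 6.80 in control and 5.73 to 6.35 in DX2 spleens, and their defining marker Siglech, at 7.00, 6.62 and 7.06 against 6.18, 5.47 and 6.37, was lowest in DX2 2, where Tlr7 and Tlr9 were highest. Of 7 conventional dendritic cell markers 4 were lower (median -0.05), with means of 6.69 to 6.79 in control and 6.52 to 6.60 in DX2 spleens. The part of these cell types in the values of Tlr3, Tlr7 and Tlr9 was not tested. Among cells not known chiefly for these receptors, all 6 erythroid markers were higher in DX2 on average (median 1.29), with overlapping groups. Their mean was 6.54, 8.43 and 8.33 in controls 1 to 3 and 9.99, 7.77 and 9.74 in DX2 1 to 3. Control 1 thus lay apart from the other controls, and DX2 2 lay below controls 2 and 3. Of 5 NK cell markers 4 were lower (median -0.22).

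Tlr7 and Tlr8 are neighbours on the X chromosome with no protein-coding gene starting between them. The difference Tlr8 minus Tlr7 was -1.29, -0.50 and -1.02 in control and 1.52, -1.39 and -0.31 in DX2 spleens. It was highest in DX2 1 and lowest in DX2 2, and the groups overlapped (exact two-sided permutation p = 0.50, also 0.50 after adjustment over the 3 pairs). The male control read 7.71, 6.69 and 7.62 for Tlr7, Tlr8 and Tlr13, against 8.11 and 7.50, 6.82 and 7.00, and 7.34 and 7.39 in the female controls, so that it lay above both for Tlr13, below both for Tlr8 and between them for Tlr7. With 1 male control, the part of sex in these receptors was not tested.

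Surface and endosomal receptors were also set against each other as groups. The mean of the 5 surface receptors minus the mean of the 5 endosomal receptors was 0.14, 0.27 and 0.33 in control and -0.41, -0.56 and -0.54 in DX2 spleens. Every DX2 spleen lay below every control, with a shift of -0.75 and a pooled SD between replicates of 0.09. Since probe sets differ in brightness, only the change of this value between arrays has a meaning, and, the members having been chosen with results known, no test was made. The surface mean was 7.80, 7.58 and 7.85 in control and 7.30, 7.75 and 7.46 in DX2 spleens, and the endosomal mean 7.66, 7.31 and 7.52 against 7.71, 8.31 and 7.99, so that surface means overlapped between the groups and endosomal means did not. The shift was -0.80 with DX2 1 left out and -0.84 among male spleens. Tlr1, Cd180, Tlr8 and Tlr13 carried it. Without these 4, left out after their values were seen, the other 3 surface receptors (Tlr2, Tlr4 and Tlr6) were higher in DX2 by 0.14 and the other 3 endosomal receptors (Tlr3, Tlr7 and Tlr9) by 0.16, a shift of -0.020 with overlapping groups. Tlr1 and Cd180 were lower in DX2, as the B cell marker mean was. Tlr8 and Tlr13 were higher, as the monocyte and red pulp macrophage marker means were. Among the DX2 spleens Tlr13 was lowest in DX2 1 (8.13), where these monocyte and macrophage means were highest (8.25 and 9.42). The part of these cell types in the shift was not tested.

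**Figure D4:**
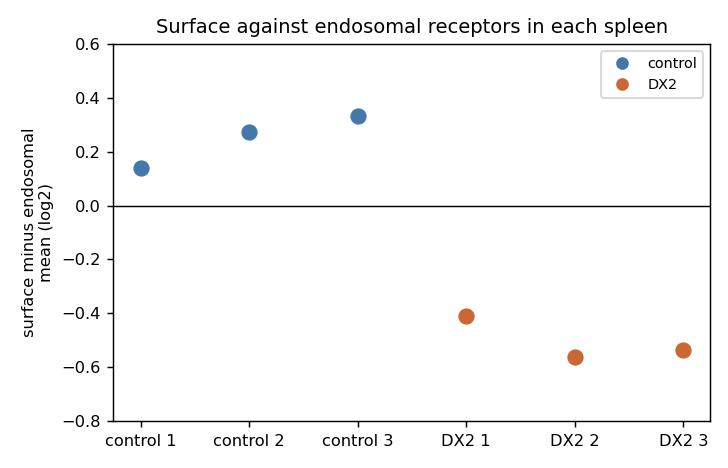
Mean log2 value of the 5 surface receptors minus that of the 5 endosomal receptors (vertical axis) on each array. The 3 control spleens lie between 0.14 and 0.33 and the 3 DX2 spleens between -0.56 and -0.41.

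The 3 other Toll-like receptors measured had no common direction. Tlr5, the flagellin receptor, read 6.31, 6.09 and 6.16 in control and 5.73, 5.77 and 5.80 in DX2 spleens, without overlap. Its difference of -0.42 (SE 0.11) did not pass (limma, adjusted p = 0.131). Tlr11 and Tlr12, which bind profilin of protozoan parasites in mice, differed by 0.24 (SE 0.41) and 0.47 (SE 0.38) and were lowest in DX2 1 and highest in DX2 2, as were Tlr9 and, among the DX2 spleens, Tlr7.

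Of the 6 coreceptors of the surface receptors 0 passed limma's test, 0 had an unadjusted p under 0.05, and 0 had groups apart. In DX2 5 were higher and 1 lower (median 0.22). Cd14, which hands lipopolysaccharide to Tlr4, differed by 0.48 (SE 0.27), with 7.17 in DX2 1 against 6.07 and 6.24 in DX2 2 and DX2 3 and 5.91 to 6.09 in control spleens. Ly96, the lipopolysaccharide-binding partner of Tlr4, differed by 0.45 (SE 0.28), and Lbp by 0.33 (SE 0.34). Ly86, the partner that Cd180 needs at the cell surface, differed by -0.03 (SE 0.23), reading 10.50, 10.63 and 10.69 in control and 10.09, 11.05 and 10.58 in DX2 spleens. Cd180 minus Ly86 was -0.58, -1.31 and -0.70 in control and -1.84, -1.71 and -1.65 in DX2 spleens. It was lower in DX2 by 0.87 on average, without overlap. As Ly86 hardly differed, this value largely repeats the lower Cd180 and is no separate support for it. The exact two-sided permutation p was 0.10, the smallest possible (0.15 adjusted over the 3 pairs, which were chosen after the values were seen).

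Genes for folding, transport and cleavage of the receptors gave no call. Of 15 measured, 0 passed limma's test, 7 had an unadjusted p under 0.05 (16.0% of all genes), and 11 were higher in DX2 (median 0.16). The groups did not overlap for 8 of them (22.0% of all genes), 7 toward higher values (10.7%). The lysosomal proteases Ctsb, Ctsl and Lgmn were among these 7, and macrophage marker means were higher on the same arrays, whose part was not tested. Lrrc59, which helps to move endosomal receptors out of the endoplasmic reticulum, differed by 0.44 (SE 0.12, adjusted p = 0.147), and the protease cathepsin L (Ctsl) by 0.43 (SE 0.13, adjusted p = 0.185). Slc15a4, a lysosomal transporter needed for signalling by Tlr7 and Tlr9, differed by -0.43 (SE 0.14, adjusted p = 0.191). Unc93b1, the chaperone that carries endosomal receptors to endosomes and named here for that role, differed by -0.21 (SE 0.15, adjusted p = 0.548).

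Of the 7 adaptors 0 passed limma's test and 1, Myd88, which most of the receptors share, had an unadjusted p under 0.05, as did 16.0% of all genes. Myd88 read 7.94, 7.93 and 7.88 in control and 8.64, 8.50 and 8.36 in DX2 spleens. The groups were well apart, and the difference of 0.58 (SE 0.11) had an adjusted p = 0.0834 (limma). Sarm1, which can restrain signalling through TRIF, differed by -0.28 (SE 0.13), and Ticam2, the bridging adaptor of Tlr4, by 0.34 (SE 0.17).

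The kinases, ligases and transcription factors downstream gave no call. Of 13 kinases and ubiquitin ligases 0 passed, 4 had an unadjusted p under 0.05 (16.0% of all genes), and 6 were higher and 7 lower (median -0.01). Btk, a kinase of B cells and myeloid cells, differed by -0.57 (SE 0.16, adjusted p = 0.150), the ubiquitin ligase Peli1 by -0.45 (SE 0.16) and the TAK1 partner Tab1 by 0.34 (SE 0.14). Of 5 transcription factors 0 passed and 2 had an unadjusted p under 0.05 (16.0% of all genes), 1 higher and 1 lower. The median of the 5 was -0.16, the lowest of the receptor and pathway lists. The NF-kB subunit Rel read 9.82, 9.34 and 9.79 in control and 8.31, 9.12 and 8.75 in DX2 spleens, a difference of -0.92 (SE 0.23, adjusted p = 0.123). Irf7, the interferon regulatory factor downstream of Tlr7 and Tlr9, differed by 1.07 (SE 0.39, adjusted p = 0.248), with 8.98 and 8.64 in DX2 2 and DX2 3, 7.47 in DX2 1 and 6.94 to 7.79 in control spleens. Irf3 differed by -0.23 (SE 0.11).

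**Figure D5:**
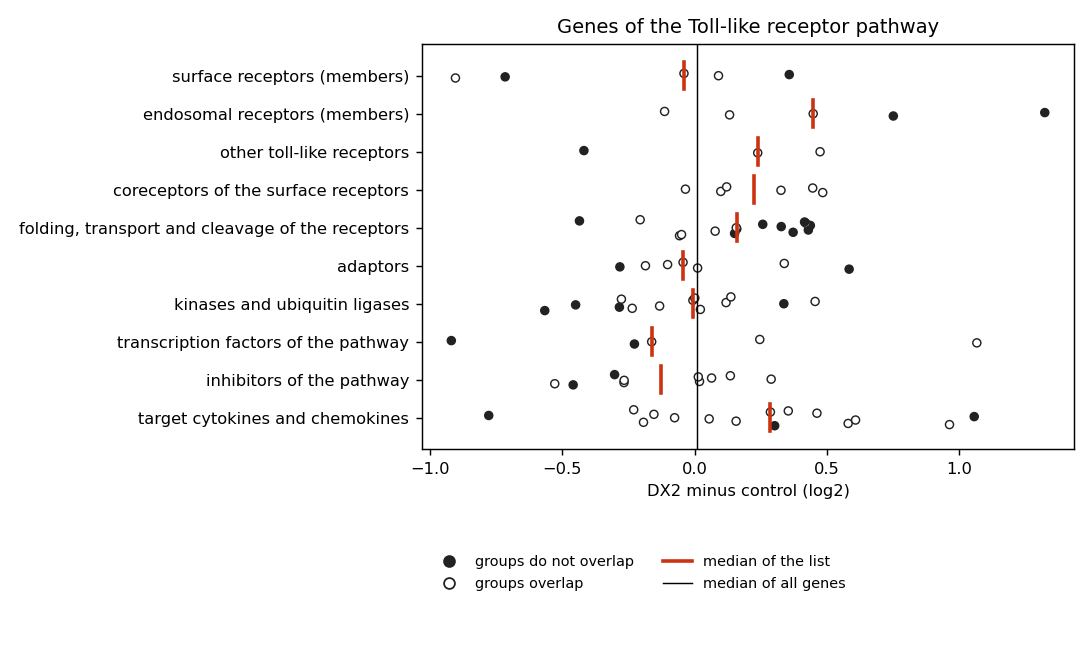
DX2 minus control on the log2 scale (horizontal axis) for every measured gene of the receptor and pathway lists. Filled points mark genes whose groups do not overlap, red bars the median of each list, from -0.16 for transcription factors to 0.45 for endosomal receptors, and the black line the median of all genes (0.01).

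Inhibitors and target genes gave no call either. Of 10 inhibitors 0 passed and 1 had an unadjusted p under 0.05 (16.0% of all genes), with 5 higher and 5 lower (median -0.13). The deubiquitinase Cyld differed by -0.46 (SE 0.17), the ribonuclease Zc3h12a by -0.30 (SE 0.14) and the receptor Sigirr by -0.27 (SE 0.14). Of 15 target cytokines and chemokines 0 passed and 2 had an unadjusted p under 0.05 (16.0% of all genes), with 10 higher and 5 lower (median 0.29). Il12a, a subunit of interleukin-12, read 6.69, 6.53 and 6.90 in control and 5.86, 6.07 and 5.86 in DX2 spleens, a difference of -0.78 (SE 0.13, adjusted p = 0.0710, limma). Il10, an anti-inflammatory cytokine, read 5.04, 5.44 and 4.78 in control and 5.94, 5.97 and 6.53 in DX2 spleens, a difference of 1.06 (SE 0.22, adjusted p = 0.0981, limma). For both the groups did not overlap. Ccl3 differed by 0.96 (SE 0.58), while Ifnb1 and Cxcl2 stood at 3.47 or lower on every array.

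For the 6 receptors whose values spanned at least 1 on the log2 scale, the 3 genes of most similar pattern were taken from 17370 genes by the root mean square difference (RMS) over the 6 arrays after each gene's mean was subtracted. Closest to Tlr1 were Rhoh, Gdf11 and Pde4b (RMS 0.06 each), and closest to Cd180 were Rel (0.11), Setbp1 (0.11) and Trim7 (0.13). Tlr8 lay nearest to the lectin-like receptor Clec4a3 (0.12), the sialic acid receptor Siglece (0.13) and Clec4b1 (0.21), which all read highest in DX2 1. Nearest to Tlr9 were Stat2 (0.11), the MHC class II chain H2-Ab1 (0.11) and Pla2g2d (0.13), all lowest in DX2 1 and highest in DX2 2. Tlr7 lay nearest to Procr (0.10), Tlr12 (0.10) and Il18bp (0.11), and Tlr3 to Ubl7 (0.08), Sh3gl2 (0.09) and Hsd3b3 (0.09). These patterns rest on 6 arrays that share the group difference and the oddities of DX2 1.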

How the data were processed

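Whole-spleen RNA from 6 mice, 3 per group by the sample titles, was labelled with biotin and hybridised to 1 Affymetrix array each. The authors deposited log2 expression values made with RMA, per the submitters' processing notes. No version or annotation is given in the sources used here. The log2 scale rests on the values themselves, which run from 0.771 to 13.3. RMA compresses large differences, and precision is limited by having 6 arrays.

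Of 41345 probe sets, 23521 had 1 gene symbol in the platform annotation, 1814 several and 16010 none. Of the 23521, 23328 matched a RefSeq gene (GRCm38.p6) by Entrez number. Each of 22180 genes was represented by its probe set of highest mean, and the test was limma 3.58.1 in R 4.3.3 without covariates, with Benjamini-Hochberg adjustment over all genes. The fit was tested on simulated data.

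The members, gene lists and alternatives were chosen with earlier results of these data known, and the motifs with the sequences in view. Other lists contributed genes past the threshold, or up to 3 of smallest unadjusted p. Added after their values were seen were Unc93b1, Ifnb1, Cxcl2, Cd79a, Pax5, Spic, Vcam1, Hmox1, Slc40a1, Ly86, Ccr2, Ly6c1 and the gene pairs. For receptors spanning at least 1 on the log2 scale the 3 genes of closest pattern were named, predicted genes left out. Genes of the lists without a probe set of their own, such as Irak4 and Irf5, were not analysed here. The alternatives were a replicate block, each array left out, a filter on dim genes, other priors, array weights, 2 renormalizations, other choices of probe set, a sex term and the male spleens alone.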

Additional observations from a re-analysis of the deposited data

How the results depend on the processing

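Under 17 alternative settings the shift of surface against endosomal receptors stayed between -0.84 and -0.71, and without Tlr1, Cd180, Tlr8 and Tlr13, a choice made after seeing the data, it was -0.020. Tlr1, Tlr4, Cd180, Tlr7, Tlr8 and Tlr13 kept their sign in the 17 settings. Not all of these settings could move the values. The replicate block, other priors, the filter on dim genes and other choices of probe set left each receptor's difference unchanged by construction. Centring the arrays cancels in the shift. The sex term and the male spleens alone gave the same differences as each other, the female spleens being controls. The median of the surface receptors ranged from -0.12 to 0.07, and that of the endosomal receptors from 0.020 (without DX2 2) to 0.78 (without DX2 1). Receptors past the threshold numbered 0 as reported, 1 with the 40% dimmest genes left out, 2 with array weights, 1 at an adjusted p of 0.1, 5 at an unadjusted p under 0.05, and 0 to 1 when an array was left out, the 1 being Tlr1 without DX2 2. Genes past the threshold numbered 70 as reported, 125 without dim genes, 547 with array weights, 394 at an adjusted p of 0.1 and 3538 at an unadjusted p under 0.05. They numbered 2 with centred arrays, 2 with a sex term, 0 in the male spleens alone (limma), and 1 to 370 with an array left out: 1 without control 1, control 2 or DX2 3, 5 without control 3, 8 without DX2 1 and 370 without DX2 2. The fits with fewer arrays or more terms have fewer degrees of freedom, and the cause of the other moves was not tested. Calls were 8 higher and 62 lower as reported, 20 and 64 after a second quantile normalization and 1 and 1 with centred arrays, where the median of all genes was 0.10.

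Small differences turned sign. Tlr2 was -0.063 with the sex term and in the male spleens alone, and -0.044 to 0.17 with an array left out (-0.044 without control 2). Tlr3 was -0.057 with the sex term and in the male spleens, and -0.066 to 0.48 with an array left out (-0.05 without control 2, -0.01 without DX2 2, -0.066 without DX2 3). Tlr6 was 0.024 with array weights, 0.052 with centred arrays, 0.0074 after the second quantile normalization, and -0.12 to 0.073 with an array left out (0.073 without DX2 1). Tlr9 was -0.47 to 0.36 with an array left out (0.10 without control 1, 0.36 without DX2 1).

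The groups share replicate numbers without a stated pairing. Same-numbered deviations from the group means correlated at -0.32, -0.14 and 0.07 over genes. Within a group of 3 arrays these deviations sum to 0, so the correlations cannot decide whether the samples were paired. With the replicate number as a block, 1 gene and 0 receptors passed (limma), the smallest adjusted p of a receptor being 0.222 for Tlr13.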
